A study of Homo sapiens with 4 samples.

Results

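The interferon-stimulated genes IFIT1, IFIT2, IFIT3, ISG15, OAS1, OAS3, MX1, IRF1 and IFIH1 were examined in RNA immunoprecipitation followed by sequencing (RIP-seq) of the nuclear m6A reader YTHDC1 in MDA-MB-231, a human triple-negative breast cancer cell line. They were chosen by name, every listed transcript was kept, and all 9 genes were listed, with 34 transcripts, among 20298 genes and 75165 transcripts in all. There were 2 Flag-YTHDC1 IP and 2 input libraries, labelled as biological replicates. Cells of both groups carried 3x Flag-YTHDC1 from a lentiviral vector given at a multiplicity of infection of 4 and were selected with 2 μg/ml puromycin for 4 days, so no group lacked the tagged protein. The cells were crosslinked with 3 exposures to 254 nm UV light and their nuclei were isolated. The IP held RNA recovered with an anti-Flag antibody from nuclear lysate containing 500 μg of protein. The input was lysate containing 50 μg of protein that was kept aside. The labels name no interferon treatment, and a control IP with IgG is not analysed here.

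The values below are the authors' mean normalized count of each transcript over the IP and input libraries together. A mean normalized count is the average number of reads assigned to a transcript after each library was scaled for its depth. The authors also corrected for batch effects, and whether that correction entered these counts is not known here. No value was given for a single library or for the IP and the input apart. Depth per library is therefore unknown, and no level carries an error. The authors' own comparison of the IP with the input was not used, and nothing below compares them. The sum over the listed transcripts of a gene is its level here. Levels are numbers of reads and are not divided by transcript length, so they do not rank genes by numbers of RNA molecules. Each level, rank and percentile also mixes abundance in the input with recovery in the IP, which cannot be told apart here. In bulk libraries such as these, fewer cells that make an RNA and less RNA per cell cannot be told apart.

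Interferons are secreted proteins that cells release when they sense a virus. Type I interferon binds the receptor formed by IFNAR1 and IFNAR2, the kinases JAK1 and TYK2 phosphorylate STAT proteins, STAT2 among them, and these join IRF9 to bind the interferon-stimulated response element (ISRE) in promoters. Type II interferon acts through STAT dimers at the gamma-activated site (GAS). The genes switched on in this way include those of proteins that detect viral RNA, block its translation or degrade it. YTHDC1 binds RNA methylated at m6A in the nucleus and acts there on splicing and export.

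The members were first located in the genome and their promoters read, since interferon acts on these genes through it. IFIT2, IFIT3, IFIT1B, IFIT1 and IFIT5 lie in this order within 119 kb of chromosome 10 (GRCh38, chr10:89302046-89420997). OAS1, OAS3 and OAS2 follow each other within 105 kb of chromosome 12 (chr12:112906962-113011723). ISG15 lies at chr1:1013497-1014540, IFIH1 at chr2:162267074-162318684, IRF1 at chr5:132481609-132490773 and MX1 at chr21:41420558-41459214. RefSeq promoter sequences (GRCh38.p14), from 250 bases before to 50 bases after a transcription start, were matched by symbol for 7 of the 9 genes and covered 10 starts. Those of IFIT2 and OAS1 were not analysed here. Each was searched on both strands for the ISRE core letters GAAANNGAAA and for the GAS letters TTCNNNGAA.

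ISRE core letters were found at 8 of the 10 starts and in 6 of the 7 genes, namely ISG15, IFIT1, IFIT3, IFIH1, OAS3 and MX1. Among all 35116 promoters of the same length, 3.57% held these letters, and 4.38% of 27305 genes did. GAS letters were found in IRF1 and MX1, at 2 of the 10 starts, against 7.66% of all promoters. By gene this was 2 of the 7, against 9.38% of 27305 genes. The match to both sets of letters overlapped at 1 start, in MX1. IRF1 had GAS letters and no ISRE core letters in this window. For each of the 7 genes, 30 bases are shown around the match nearest to a start, in the direction of the gene and with the matching letters in capitals. The letters are those of the ISRE in the upper 6 sequences and of the GAS in that of IRF1, and TTTC repeats are the ISRE core on the opposite strand.
ISG15, chr1:1013377-1013406 (+ strand): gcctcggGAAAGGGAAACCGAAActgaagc
IFIT1, chr10:89392510-89392539 (+ strand): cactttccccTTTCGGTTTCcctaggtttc
IFIT3, chr10:89332468-89332497 (+ strand): gttccatcagTTTCACTTTCctttcccctt
IFIH1, chr2:162318686-162318715 (- strand): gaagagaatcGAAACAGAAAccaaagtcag
OAS3, chr12:112938452-112938481 (+ strand): agccgggcggGAAAACGAAAccagaaatcc
MX1, chr21:41420559-41420588 (+ strand): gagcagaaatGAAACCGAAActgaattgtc
IRF1, chr5:132490878-132490907 (- strand): acagcctgatTTCCCCGAAatgacggcacg

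In ISG15, 2 overlapping copies of the core lay within the stretch shown, and their letters ran from base 113 to base 98 before the start. In IFIT1 the core lay 103 to 94 bases before the start, and another copy lay 116 to 107 bases before it. IFIT3 had 2 starts with 2 copies each, and the copy shown lay 51 to 42 bases before the start at position 89332529. In IFIH1 the core shown lay 21 to 12 bases before the start, and in OAS3 it lay 12 to 3 bases before it. The MX1 copy shown lay inside the transcribed part, at bases 12 to 21 of the start at position 41420558. The GAS letters of IRF1 lay 124 to 116 bases before the start. A match of letters is a description of the sequence and no evidence of binding in these cells.

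**Figure D1:**
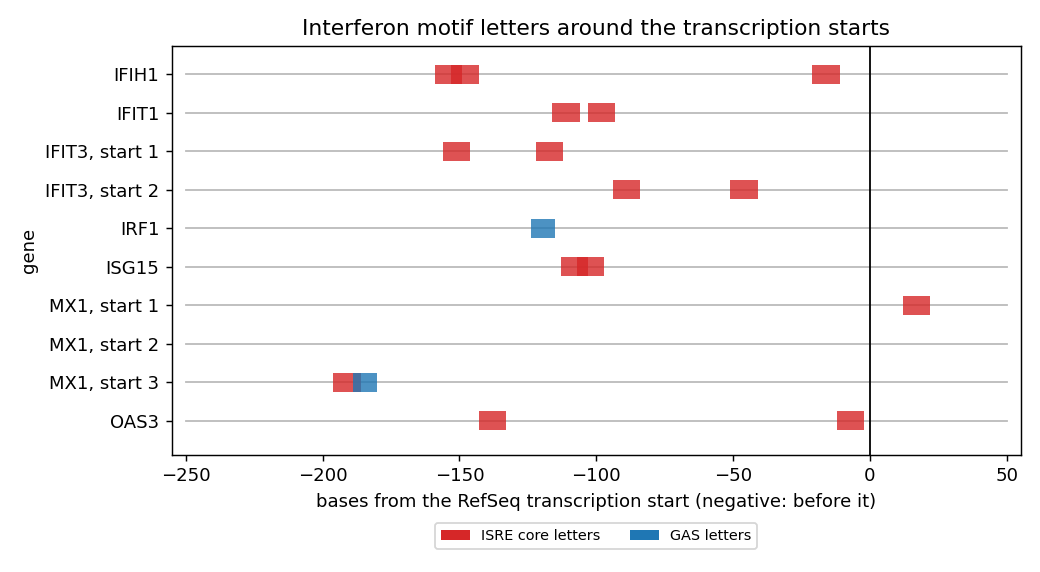
Positions of ISRE core letters (red) and GAS letters (blue) in the 10 RefSeq promoters of 7 interferon-stimulated genes, plotted as bases from the transcription start (x axis) with 1 line for each start (y axis). All but 1 of the 10 starts, the second of MX1, held letters of at least 1 motif.

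Together the 9 genes had a level of 29089, which was 0.0872% of the mean normalized counts of the table. The IFIT genes took most of it. Levels of IFIT1, IFIT2 and IFIT3 summed to 19698, or 67.7% of the level of the 9 genes, and with ISG15 to 81.5%. Levels ran from 68.8 in OAS1 to 8563 in IFIT3, with a median of 2417. The median over the 14050 protein-coding genes was 588, with quartiles of 137 and 1736. Of the 9 genes, 8 lay above that median, IFIH1 by a factor of 1.02 only, and OAS1 lay below the lower quartile. Against the median of 624 over the 13631 genes with a listed protein-coding transcript, 7 of the 9 lay above it and IFIH1 and OAS1 below. Ranked by level among all 20298 genes, the median of the 9 genes stood above 87.0% of them. The level of OAS1 stood above 36.0% of all genes, but above 16.1% of the genes with a protein-coding transcript. In order of reads the genes were IFIT3, IFIT2, ISG15, IFIT1, IRF1, OAS3, MX1, IFIH1 and OAS1. Without replicate values it is not known which neighbours in this order differ beyond their spread.

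**Figure D2:**
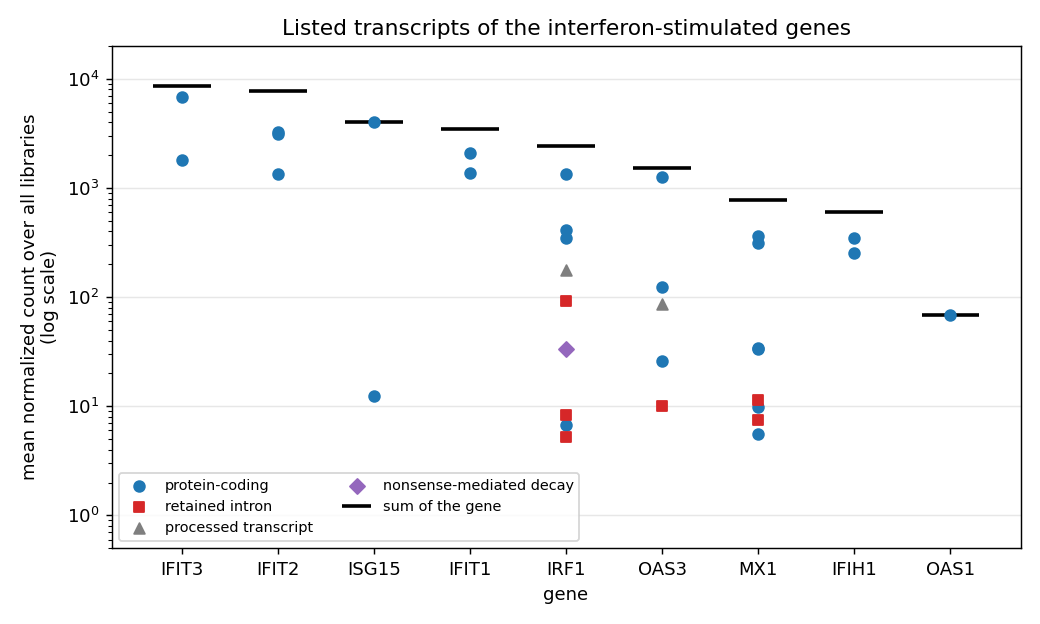
Mean normalized count over all libraries (y axis, log scale) of each of the 34 listed transcripts of the 9 genes (x axis), with symbols for the transcript type and a black line for the sum of the gene. The sums run from 8563 in IFIT3 to 68.8 in OAS1, and the transcripts that are not protein-coding lie in IRF1, OAS3 and MX1.

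The IFIT proteins bind viral RNA, and IFIT1 recognises RNA that lacks the methylation of a cellular cap. IFIT3 (ENSG00000119917.14) had the highest level of the 9 genes, 8563, which was 14.6 times the median protein-coding gene. Its transcript IFIT3-202 had a mean normalized count of 6744, or 78.8% of the gene, and IFIT3-201 had 1819, or 21.2%. The protein of IFIT3 is known to stabilise IFIT1, and both transcripts are protein-coding. IFIT2 (ENSG00000119922.10) had a level of 7682, spread over 3 protein-coding transcripts. IFIT2-202 had 3222 and IFIT2-201 had 3122, which differed by a factor of 1.03, and IFIT2-203 had 1338. No transcript of IFIT2 thus reached 50% of the gene, the highest share being 41.9%. IFIT1 (ENSG00000185745.10) had a level of 3453, of which IFIT1-201 had 2069 and IFIT1-202 had 1383. The 5 genes of the family summed to 21299. Among those not described so far, IFIT5 had a level of 1596 and IFIT1B a level of 5.40, so the genes of this cluster differed widely in reads, and IFIT3 stood above 97.2% of all genes.

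ISG15 (ENSG00000187608.10) encodes a small protein that resembles ubiquitin and is joined to other proteins during the interferon response. Its level was 4022, and ISG15-203 made up 99.7% of it with a mean normalized count of 4009. The other listed transcript, ISG15-202, had 12.5. Both are protein-coding. The enzymes that attach and remove ISG15 had lower levels in reads. HERC5, the ligase, had 1027, UBA7, the activating enzyme, had 554, UBE2L6, the conjugating enzyme, had 467, and USP18, the protease that removes ISG15, had 80.3. All 5 genes of this group were listed, with a sum of 6151, and 2 of them, ISG15 and HERC5, lay above the median protein-coding gene.

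The oligoadenylate synthetases detect double-stranded RNA and make a second messenger that sets off RNA degradation. OAS3 (ENSG00000111331.13), the largest of them, had a level of 1507. OAS3-201 had a mean normalized count of 1260 and 83.6% of the gene, OAS3-207 had 124 and OAS3-202, a processed transcript without an assigned reading frame, had 86.6. The 2 remaining OAS3 transcripts were OAS3-205, which is protein-coding, with 26.0, and OAS3-203, which retains an intron, with 10.0. OAS1 (ENSG00000089127.13) was represented by the protein-coding OAS1-201 alone, with 68.8. The levels of these neighbours on chromosome 12 thus differed 21.9-fold in reads. OAS2, the next gene on the chromosome, had a level of 692 and OASL, which lacks enzyme activity, had 1733. The 4 genes summed to 4001.

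MX1 (ENSG00000157601.14) encodes a dynamin-like GTPase that traps viral nucleocapsids. Its level of 777 was divided over 8 transcripts, of which MX1-202 with 366 and MX1-218 with 310 made up most. The other 4 protein-coding transcripts, MX1-203, MX1-205, MX1-206 and MX1-210, ranged from 5.55 to 33.8. The 2 transcripts that retain an intron, MX1-213 with 11.5 and MX1-215 with 7.44, lay within the range of these 4. MX2, its paralogue, had a level of 113, and the sum of both was 889.9.

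IRF1 (ENSG00000125347.14) is a transcription factor that binds ISRE-like sites and is itself induced by interferon. It had the most listed transcripts of the 9 genes, 9, and the largest part outside protein-coding transcripts, 13.1% of a level of 2417. IRF1-202 had a mean normalized count of 1339, IRF1-201 had 408 and IRF1-211 had 348. These 3 are protein-coding, and the remaining protein-coding transcript, IRF1-209, had 6.67. The processed transcript IRF1-207 had 177. Of the 3 transcripts that retain an intron, IRF1-208 had 91.8, IRF1-206 had 8.37 and IRF1-210 had 5.25. IRF1-204, annotated as a target of nonsense-mediated decay, which removes RNA with an early stop codon, had 33.6.

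IFIH1 (ENSG00000115267.8) encodes MDA5, a helicase that senses long double-stranded RNA in the cytosol and signals through MAVS. Its level was 599, close to the median protein-coding gene at a factor of 1.02. IFIH1-206 had a mean normalized count of 347 and IFIH1-201 had 252, and both are protein-coding. MAVS, the adaptor on mitochondria, had 9518. DDX58, the gene of the related sensor RIG-I, had 1550 in 2 transcripts, and DHX58, the third helicase of this family, had 517.

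The split of each gene over transcript types was then compared with other protein-coding genes, since intron-retaining transcripts are expected mainly in the nucleus. Of the 34 transcripts, 25 were protein-coding, 6 retained an intron, 2 were processed transcripts and 1 was a target of nonsense-mediated decay. Protein-coding transcripts made up 98.5% of the level of the 9 genes, against 87.6% of the level of all protein-coding genes together. The IFIT genes and ISG15, which had protein-coding transcripts only, held 81.5% of the level of the 9 genes. In the genes with other types, the protein-coding share was 86.9% in IRF1, 93.6% in OAS3 and 97.6% in MX1. As a median over genes, this share was 100% in the 9 genes and 94.6% in all protein-coding genes. It was 92.4% in the protein-coding genes whose level lay within the range of the 9 genes. Transcripts that retain an intron made up 17.6% of the listed transcripts of the 9 genes and 17.2% of those of all protein-coding genes, but 0.462% of the level in the 9 genes and 4.16% in all protein-coding genes. In 6 of the 9 genes every listed transcript was protein-coding, as it was in 33.8% of the 14050 protein-coding genes and in 27.1% of the 11011 whose level lay within the range of the 9 genes. The median number of listed transcripts was 2 in the 9 genes and 4 in both of these larger sets. The most abundant transcript made up a median of 59.9% of the level in the 9 genes, 66.7% in all protein-coding genes and 62.7% in those within the range of the 9 genes. These shares describe 9 genes chosen by name, and no test was run on them. Reads that fit several transcripts of a gene were divided among them by estimation, so the values of transcripts that share exons depend on each other.

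**Figure D3:**
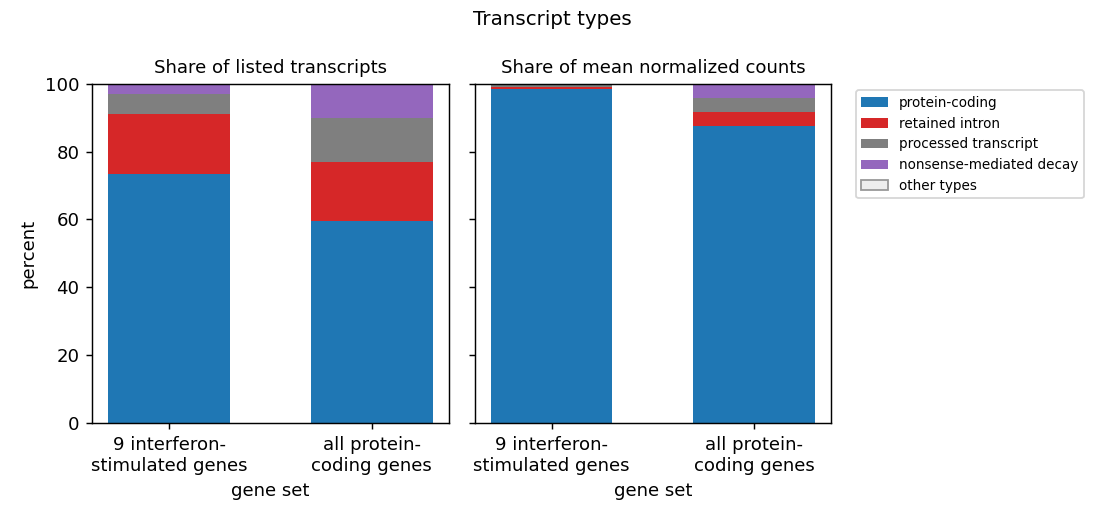
Transcript types as a percentage (y axis) of listed transcripts (left) and of mean normalized counts (right), for the 9 interferon-stimulated genes and for all protein-coding genes (x axis). Protein-coding transcripts take 98.5% of the counts of the 9 genes and 87.6% of those of all protein-coding genes.

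Outside the 9 genes, 80 genes of the interferon pathway were looked up, and 68 of them were listed. Their median level was 669, and 35 of the 68 (51.5%) lay above the median protein-coding gene, compared with 8 of the 9. Against the median of 624 given above, it was 35 of the 68 and 7 of the 9. The members and lists were chosen with earlier results of these data known, and whether that choice shaped this comparison was not tested. None of the 9 interferon genes searched, of types I, II and III, was listed. A transcript that is not listed either had fewer than 5 reads in too many libraries for the authors' filter or is missing from the table used here for another reason, so its absence does not show that no RNA was present. All 13 genes of the receptors and the JAK-STAT pathway were listed, with a sum of 17686 and levels from 162 in IFNLR1, a receptor chain for type III interferon, to 4266 in JAK1 and 4856 in TYK2. STAT2 and IRF9, parts of the complex that binds the ISRE, named after their values were seen, had levels of 2288 and 188.

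Of 8 genes of the IRF family, 6 were listed with a sum of 6524, led by IRF3, the factor that MAVS signalling activates, with 2755, and by IRF1 with 2417. IRF5 was lowest with 19.0, and IRF4 and IRF8, known from blood cells, were not listed. Of the 10 genes that sense RNA or DNA or relay that signal, 9 were listed with a sum of 16581, with MAVS at 9518 and CGAS, the sensor of DNA, at 2527. TLR3 was lowest with 70.4, and ZBP1 was not listed. All 34 other interferon-stimulated genes were listed, with a sum of 90298, and 20 of them lay above the median protein-coding gene. LGALS3BP, a secreted glycoprotein, was highest with 17802, ADAR, which edits double-stranded RNA, had 16835, and IFI44L was lowest with 21.6. LGALS3BP thus had 2.08 and ADAR 1.97 times the level of IFIT3 in reads.

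**Figure D4:**
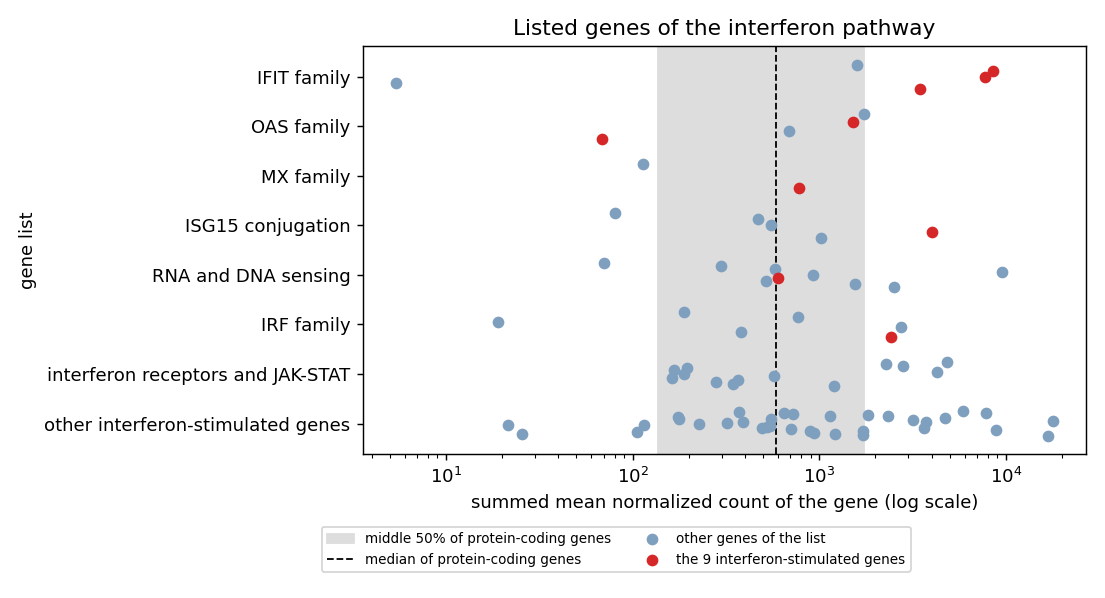
Level of each listed gene of the interferon pathway (x axis, summed mean normalized count, log scale) by gene list (y axis), with the 9 interferon-stimulated genes in red, the other genes in blue, the middle 50% of protein-coding genes shaded and their median dashed. IRF9 appears in 2 lists, and OAS1 is the only red point below the shaded range of 137 to 1736.

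The identity of the cells was checked with marker genes. All 7 markers of the cell line were listed, with levels from 7624 for CAV1 to 63189 for AXL, a receptor tyrosine kinase, and 80785 for VIM, the gene of the mesenchymal filament vimentin. Of the receptors chosen as low in triple-negative cells, ESR1 and PGR, the estrogen and progesterone receptors, were not listed. The third, ERBB2, was not low in reads, with a level of 4303 that stood above 92.9% of all genes. Of the epithelial junction markers, CLDN7 had 249 and ESRP1 was not listed. CDH1 had 10.0 in 1 transcript that is not protein-coding, and no protein-coding transcript of it was listed. Of the 5 leukocyte markers, CD14 had 138 and PTPRC 3.81, summing to 142, and CD3E, ITGAX and LILRA4 were not listed. Of the 5 fibroblast and endothelial markers, COL1A1 was highest with 705, followed by PECAM1 with 102, and COL3A1 was lowest with 10.6. Their sum was 828, and PDGFRA was not listed. Whether RNA of other cells had a part in the levels of the interferon-stimulated genes was not tested.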

How the data were processed

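RIP-seq libraries of MDA-MB-231 cells, 2 Flag-YTHDC1 IP and 2 input, were grouped by their labels. Per the paper's methods and the submitters' processing notes, the authors mapped reads with STAR 2.7.2b to a transcriptome of GENCODE v33 annotations (GRCh38), estimated reads per transcript with RSEM 1.2.31, dropped transcripts that did not reach 5 reads in 50% of samples, and used RUVSeq and DESeq2. RSEM is a statistical division of shared reads. For RIP-seq, the paper states that rRNA was depleted and that a stranded library kit was used. The strand setting of the read estimation is not given in the sources used here. The deposited table holds 1 signal value per transcript, the authors' mean normalized count over all 4 libraries, and the authors' own comparison (log2 fold changes, standard errors, p-values), which was not used. There is no value per library, so depth is unknown.

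Levels were summed by gene identifier with python 3.11.15, numpy 2.4.6 and pandas 2.3.3, plotted with matplotlib 3.10.9 and tested on simulated data of 500 genes. Of 20269 Ensembl identifiers, 20193 were in a separate table of gene names, all 9 members among them. RefSeq positions and promoters (GRCh38.p14) were matched by symbol. Transcript lengths were not used here.

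The members, gene lists and named genes (every member, every transcript, and in each list the 2 highest and the lowest gene) were chosen with earlier results of these data known. Other list genes named beside a member were added after their values were seen. The motifs, the type shares beside all protein-coding genes and the antigen presentation genes were chosen after the table was opened. Some genes and 1 promoter sequence are not reported here, and the counts and sums of lists leave them out. A count test planned for values per library was not run.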

Additional observations from a re-analysis of the deposited data

How the results depend on the processing

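The results kept their size under most choices of transcripts. The summed level of the 9 genes, 29089, was 28658 with protein-coding transcripts alone, 29046 with transcripts of a mean normalized count of at least 10 and 28638 with those of at least 100. With the most abundant transcript alone it was 19425, since the other transcripts are then left out. The median percentile, 87.0, was 80.9 among genes with a protein-coding transcript, 81.1 with protein-coding transcripts alone and 85.0 with the most abundant transcript alone. The protein-coding share of the level, 98.5%, was 98.6% and 99.4% with transcripts of at least 10 and at least 100. The median share of the most abundant transcript, 59.9%, was 63.7% among protein-coding transcripts. The order of the genes changed once over these choices, when ISG15 passed IFIT2 with the most abundant transcript alone. With transcripts of at least 100 it covered 8 genes, since OAS1 then had no value. Of 62 values of single genes 44 moved at 3 significant digits and 18 did not. The percentile of a single gene shifted most for OAS1, from 36.0 to 16.1 among genes with a protein-coding transcript. The number of the 9 genes above the median gene, 8, was 7 among genes with a protein-coding transcript and 8 under 3 other choices, all 4 of them added after the data were seen.

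The order per length of transcript was not run, as no transcript lengths were used. No paired analysis was possible because the table pools the libraries, and leaving out a replicate could not be done for the same reason. Differences between genes cannot be set against the spread between libraries, and the reads behind a low value such as that of IFIT1B are unknown.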

Other observations

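Antigen presentation, which interferon also raises, was looked up after the table had been examined. All 12 genes searched were listed. HLA-B had a level of 13464 and HLA-C of 6462, and B2M, the light chain that these class I molecules share, had 1575. Of the B2M level, 5.41% lay in protein-coding transcripts, and of the HLA-C level 45.1%, whereas 87.5% did so for HLA-B. The HLA genes are alike in sequence, and how estimation divided reads among them was not tested. TAPBP, the gene of tapasin, which links the peptide transporter to class I molecules, was second highest with 8321. The transporter genes TAP1 and TAP2 had levels of 2464 and 3810. The immunoproteasome genes PSMB8 and PSMB10 had 1566 and 894, and PSMB9 was lowest with 276. NLRC5 and CIITA, the regulators of class I and class II genes, had levels of 2294 and 1327, and CD274, the gene of PD-L1, had 427.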
